A study of Mus musculus with 22 samples.

Results

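Lysosomal cathepsins are the proteases that break down proteins delivered to the lysosome. The 10 genes described here are Ctsa, Ctsb, Ctsc, Ctsd, Ctsh, Ctsk, Ctsl, Ctss, Ctsw and Ctsz, taken by gene symbol from the array's probe annotation, and they are 10 of the 19087 named genes on the array. They had 15 of the 43379 probes: Ctsa had 3, Ctsb, Ctsd and Ctsz had 2 each, and the other 6 genes had 1. Where a gene had several probes, the one with the lowest feature number stood for the gene, and the others were fitted as well and are described where they gave another call. None of these 10 genes was dropped by a filter on low values, since none was applied.

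RNA came from the spinal cord of adult female C57BL/6 mice, either heterozygous GFAP-IκBα-dn transgenics or their WT littermates. The transgene is a truncated form of IκBα, the protein that holds NF-κB in the cytoplasm, and the GFAP promoter drives it in astrocytes, so that the block is aimed at those cells and not at microglia, infiltrating leukocytes or neurons. Cords were taken from naive mice and at 3 days, 3 weeks and 6 weeks after a contusion spinal cord injury (SCI), and the mice were 3 to 4 months old. The groups held 3 IκBα-dn mice at each of the 4 stages, and 3 WT mice at each stage except 3 weeks, which had 2.

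Cathepsins are made as inactive precursors, carried to the lysosome by mannose 6-phosphate receptors and activated there by acid pH. Most are cysteine proteases of the papain family, held in check by cystatins and stefins, while cathepsin D is an aspartic protease and cathepsin A a serine carboxypeptidase. In the injured spinal cord, phagocytes that clear myelin and cell debris, meaning resident microglia and macrophages from the blood, are rich in lysosomes.

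The sequence upstream of 4 of these genes is shown because their response to SCI ran from the largest in the family (Ctsc) to none detected (Ctsk), with Ctss and Ctsk lying next to each other on chromosome 3. The sequences are from RefSeq on build GRCm38.p6, read 5′ to 3′ on the gene's strand and ending before the first annotated base of the gene. Capitals mark CACGTG, the core of the E-box bound by TFEB and its relatives, which switch on lysosomal genes, and GAGGAA or its reverse complement, the core of the PU-box bound by the myeloid factor PU.1.
Ctsc, chr7:88277835-88278023, plus strand: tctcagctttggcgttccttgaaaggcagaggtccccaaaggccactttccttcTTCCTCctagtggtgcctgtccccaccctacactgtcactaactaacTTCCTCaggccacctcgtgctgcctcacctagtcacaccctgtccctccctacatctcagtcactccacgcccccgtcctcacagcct
Ctss, chr3:95526536-95526785, plus strand: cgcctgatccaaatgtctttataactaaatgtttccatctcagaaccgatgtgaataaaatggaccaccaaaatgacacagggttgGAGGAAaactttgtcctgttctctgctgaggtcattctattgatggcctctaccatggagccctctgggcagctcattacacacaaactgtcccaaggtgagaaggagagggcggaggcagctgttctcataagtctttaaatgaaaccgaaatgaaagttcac
Ctsk, chr3:95498960-95499209, plus strand: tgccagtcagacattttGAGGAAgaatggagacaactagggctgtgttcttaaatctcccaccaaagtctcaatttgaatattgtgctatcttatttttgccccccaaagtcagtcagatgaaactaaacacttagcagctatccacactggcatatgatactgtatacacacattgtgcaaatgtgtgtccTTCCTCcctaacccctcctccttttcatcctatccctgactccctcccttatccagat
Ctsd, chr7:142387828-142388077, minus strand: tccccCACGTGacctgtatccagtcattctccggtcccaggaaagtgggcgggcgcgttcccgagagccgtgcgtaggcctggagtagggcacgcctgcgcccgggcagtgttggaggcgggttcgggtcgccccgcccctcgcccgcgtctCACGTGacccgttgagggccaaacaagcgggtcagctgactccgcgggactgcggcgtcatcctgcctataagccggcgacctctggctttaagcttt

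Distances here count from the start given in the promoter table. For Ctsc the last 61 bases before that start lie within the annotated gene and were not printed. The Ctsc sequence held the PU-box core at 196 and 149 bases before the start, the Ctss sequence at 164 and the Ctsk sequence at 233 and 58. The responsive genes Ctsc and Ctss carried it, as did Ctsk, with no change called, and the responsive genes Ctsd, Ctsl and Ctsz did not. The part of the PU-box in these responses was not tested. The Ctsd sequence instead held the E-box core at 245 and 98 bases before the start, the nearer within the longer palindrome TCACGTGA, every match to which is also a match to the E-box core. The table had promoters of 7 of the 10 genes and no entry for Ctsb, Ctsh or Ctsw. Over the full window of 250 bases before to 50 after a start, searched on both strands, the E-box core was present for 3 of the 7 genes (Ctsa, Ctsd and Ctsl), against 8.09% of the 27025 genes and 7.15% of the 32851 promoters in the table, where a gene can have several starts. The longer palindrome was present for Ctsa and Ctsd, against 1.12% of genes and 0.974% of promoters, and the PU-box core for Ctsc, Ctsk and Ctss, against 31.3% of genes and 28.3% of promoters. The κB consensus, the letters bound by NF-κB, was found only for Ctsz, at 6 bases before its start, against 9.55% of genes and 8.46% of promoters. Other lysosomal genes carried these letters too. Of 31 other lysosomal hydrolases with a promoter, 25.8% had the E-box core, 9.68% the longer palindrome and 41.9% the PU-box core. Of 27 genes of the lysosomal membrane and its proton pump, 25.9%, 18.5% and 33.3% had them. A match is only a run of letters, and no binding was measured.

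Each array compared 2 mice, 1 labelled with Cy5 and 1 with Cy3, and its value for a probe is a log2 ratio between those mice. Of 22 arrays, 21 were fitted, carrying 23 mice on 6 slides; for the WT mouse on the last, 1 label gave 3 days and another 3 weeks, so that array entered no fit. Of the fitted arrays, 10 set an IκBα-dn mouse against a WT mouse of the same stage and 11 set stages against each other within a genotype. Levels can therefore be given only as differences, here relative to naive WT mice, and spot brightness was not used, so that markers of the labelled tissue could not be read as levels. The deposited ratios state neither their direction nor their log base. They were read as log2 of Cy5 over Cy3, and in that reading Gfap, the intermediate filament of reactive astrocytes, was 1.32 ± 0.27 log2 units (SE) higher at 3 days than in naive mice over both genotypes (adjusted p = 0.00478 by limma with Benjamini-Hochberg adjustment). The opposite reading would turn every sign below. The SD of the arrays ran between 0.37 and 0.74 log2 units, the lowest correlation between any pair of arrays was -0.32, and a dye effect was found at 58.2% of probes, which the fit took out. The probe of Nfkbia, the gene of IκBα, differed between IκBα-dn and WT mice by -0.24 log2 units in naive mice and by 0.45 ± 0.10 at 6 weeks (SE, adjusted p = 0.00481 by limma), and whether it reads the truncated transgene was not known, so it is no check of the genotypes.

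WT mouse 2 of 3 days stood apart from its labels. The median of 21 microglia and macrophage markers was 0.93 log2 units higher in IκBα-dn mouse 1 of 3 days than in this WT mouse, and 0.95 higher in the same IκBα-dn mouse than in a naive IκBα-dn mouse. Against a WT mouse of 3 weeks that marker median was 0.77 lower in it, where a naive WT mouse was 0.90 lower than another WT mouse of 3 weeks. The other 3-day array with both genotypes had a marker median of 0.07. On these arrays this mouse read close to a naive cord, and the counts at 3 days over both genotypes are given also without it, a choice made after its values were seen. Cathepsins that rise with such markers would read low in the same mouse, so leaving it out was set to raise their 3-day changes. Calls gained without it are therefore no independent support for a rise.

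**Figure D1:**
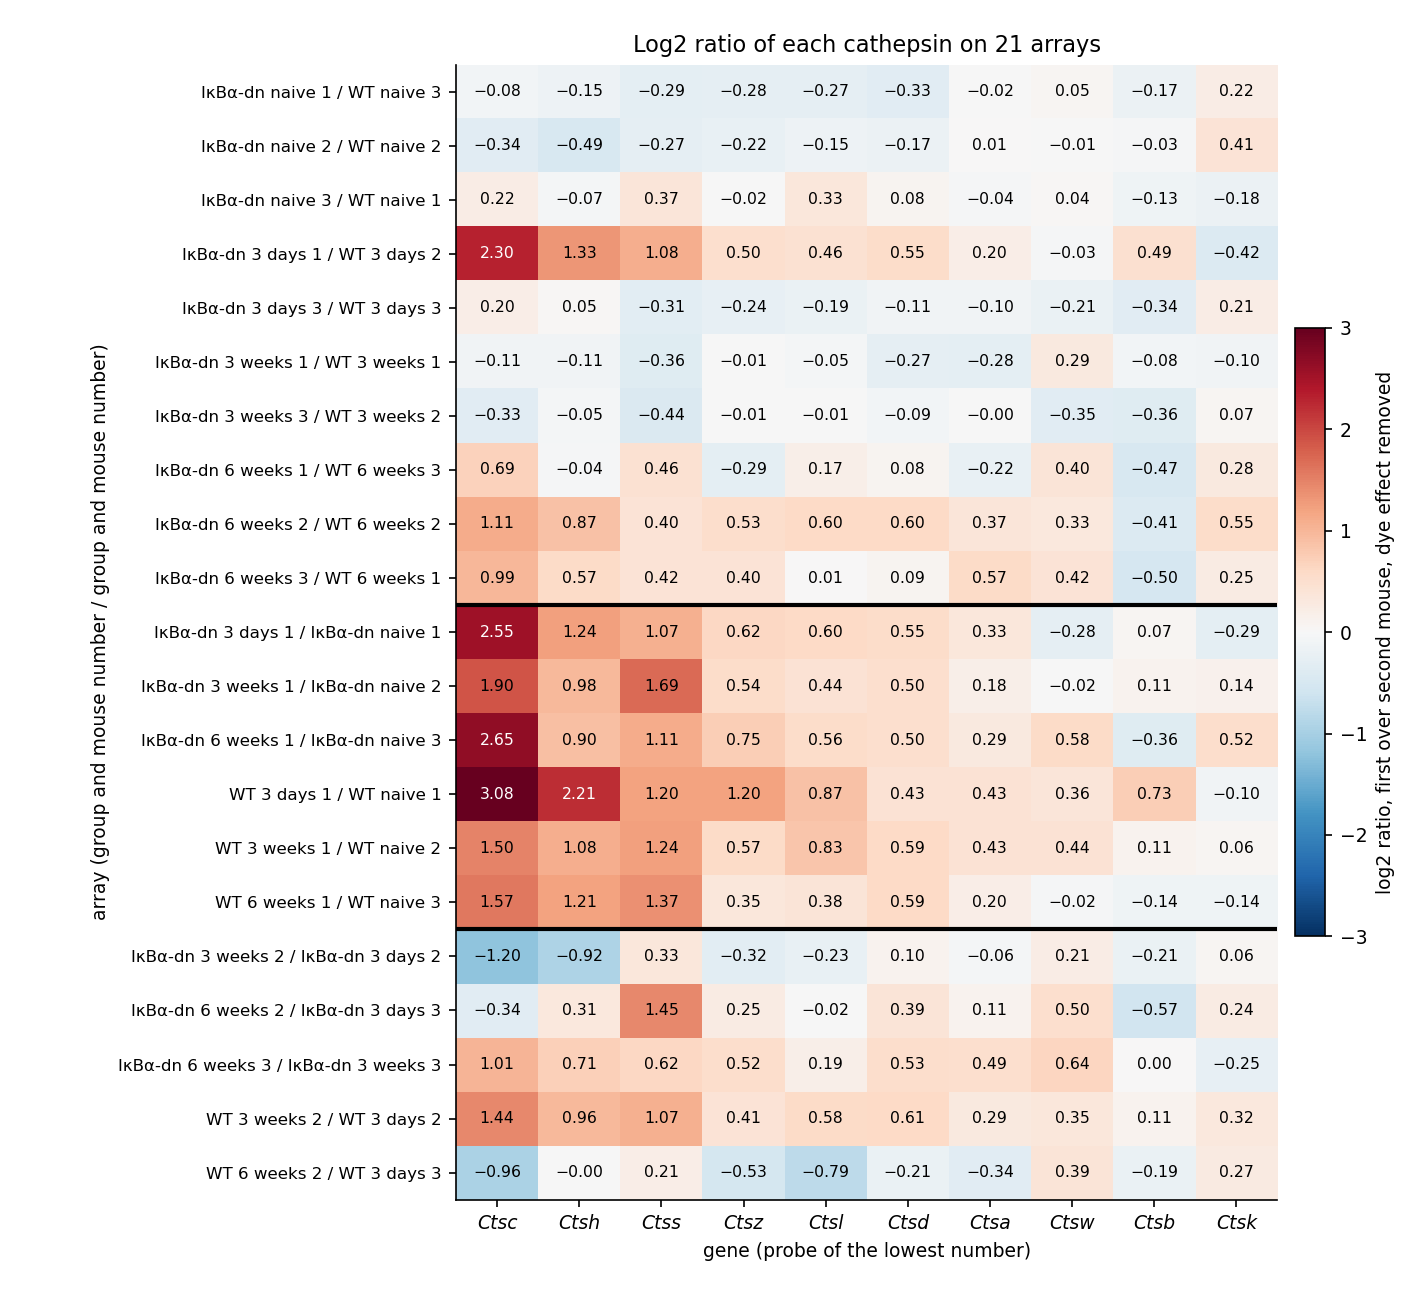
Log2 ratio between the 2 mice of each of the 21 fitted arrays (down the page, named as first over second mouse) for the 10 cathepsin genes (across), with the fitted dye effect taken out. Ctsc has the widest span, between -1.20 and 3.08, and Ctsb and Ctsk show no common shift on the arrays of injured against naive mice.

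After SCI some of the 10 cathepsins rose at each stage by the probe that stood for the gene, and Ctsc changed most. At 3 days 5 of the 10 genes rose against naive mice over both genotypes (Ctsc, Ctsh, Ctss, Ctsz and Ctsl) and none fell, at 3 weeks 5 rose (Ctsc, Ctss, Ctsh, Ctsl and Ctsd), and at 6 weeks 6 rose (Ctsc, Ctss, Ctsh, Ctsz, Ctsd and Ctsw). Of all 43379 probes, 9.04% were called at 3 days, 2.48% at 3 weeks and 17.5% at 6 weeks. Those called higher were 6.9%, 2.19% and 7.88% and those called lower 2.14%, 0.293% and 9.64%. A call here means an adjusted p under 0.05 in limma, with Benjamini-Hochberg adjustment over all probes of a comparison. The median change of the 10 genes was 0.52 log2 units at 3 days, 0.57 at 3 weeks and 0.53 at 6 weeks, against -0.05, -0.03 and -0.02 over all probes. In RNA from whole cord segments, more cells of a type and more RNA per cell cannot be told apart. Markers of microglia and macrophages moved with these genes: 15 of 21 were called higher at 3 days, again 15 at 3 weeks, and 17 at 6 weeks. The 3-day count was 17 without WT mouse 2 of 3 days. None was called lower, their medians were 0.93, 0.89 and 1.17 log2 units, and their part in the cathepsin changes was not tested.

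Ctsc encodes dipeptidyl peptidase 1, the aminopeptidase that activates the granule serine proteases of neutrophils, mast cells and cytotoxic lymphocytes. On the arrays that set an injured against a naive mouse, it read 2.55 at 3 days, 1.90 at 3 weeks and 2.65 at 6 weeks in IκBα-dn mice, and 3.08, 1.50 and 1.57 in WT mice. The injured mouse was higher on all 6 arrays, in each by more than any of the 3 naive arrays with both genotypes showed in either direction (-0.34 to 0.22). In the fit over all 21 arrays, Ctsc was higher than in naive mice by 2.45 ± 0.31 log2 units at 3 days, a 5.47-fold change (SE, 95% interval 1.80 to 3.10, adjusted p = 0.00021 by limma). The difference was 2.00 ± 0.32 at 3 weeks (3.99-fold, adjusted p = 0.00263 by limma) and 2.07 ± 0.32 at 6 weeks (4.20-fold, adjusted p = 0.000308 by limma). The 3 stages after injury could not be ranked: Ctsc at 3 weeks differed by -0.45 and at 6 weeks by -0.38 log2 units from 3 days, and neither was called. Without WT mouse 2 of 3 days, the 3-day change was 2.81 and the level at 3 weeks was 1.18 log2 units below that at 3 days (adjusted p = 0.000747 by limma), so the order depended on that mouse.

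Ctss and Ctsh followed. Ctss encodes cathepsin S, which stays active at neutral pH and cuts the invariant chain of MHC class II in antigen-presenting cells. Its ratios of injured to naive mice were 1.07, 1.69 and 1.11 at 3 days, 3 weeks and 6 weeks in IκBα-dn mice, and 1.20, 1.24 and 1.37 in WT mice. All 6 lay above 1 log2 unit, where the naive arrays with both genotypes spanned -0.29 to 0.37. The fitted rise was 0.82 ± 0.21 at 3 days (1.77-fold, adjusted p = 0.0202 by limma), 1.40 ± 0.22 at 3 weeks (2.64-fold, adjusted p = 0.00204) and 1.49 ± 0.22 at 6 weeks (2.82-fold, adjusted p = 0.000186). The 6-week level was 0.67 ± 0.21 log2 units above the 3-day level, which missed the threshold (adjusted p = 0.0542 by limma).

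Ctsh encodes cathepsin H, an aminopeptidase. It read 1.24, then 0.98 at 3 weeks and 0.90 at 6 weeks in IκBα-dn mice, and 2.21, 1.08 and 1.21 in WT mice, with the 3-day WT array standing above the other 5. The fitted rise was 1.32 ± 0.27 at 3 days (2.50-fold, adjusted p = 0.00477 by limma), 1.12 ± 0.28 at 3 weeks (2.17-fold, adjusted p = 0.045) and 1.33 ± 0.28 at 6 weeks (2.51-fold, adjusted p = 0.00313). The 3 stages did not differ by call. Levels of different probes were not compared, so the order from Ctsc to Ctsh at 6 weeks is an order of changes.

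**Figure D2:**
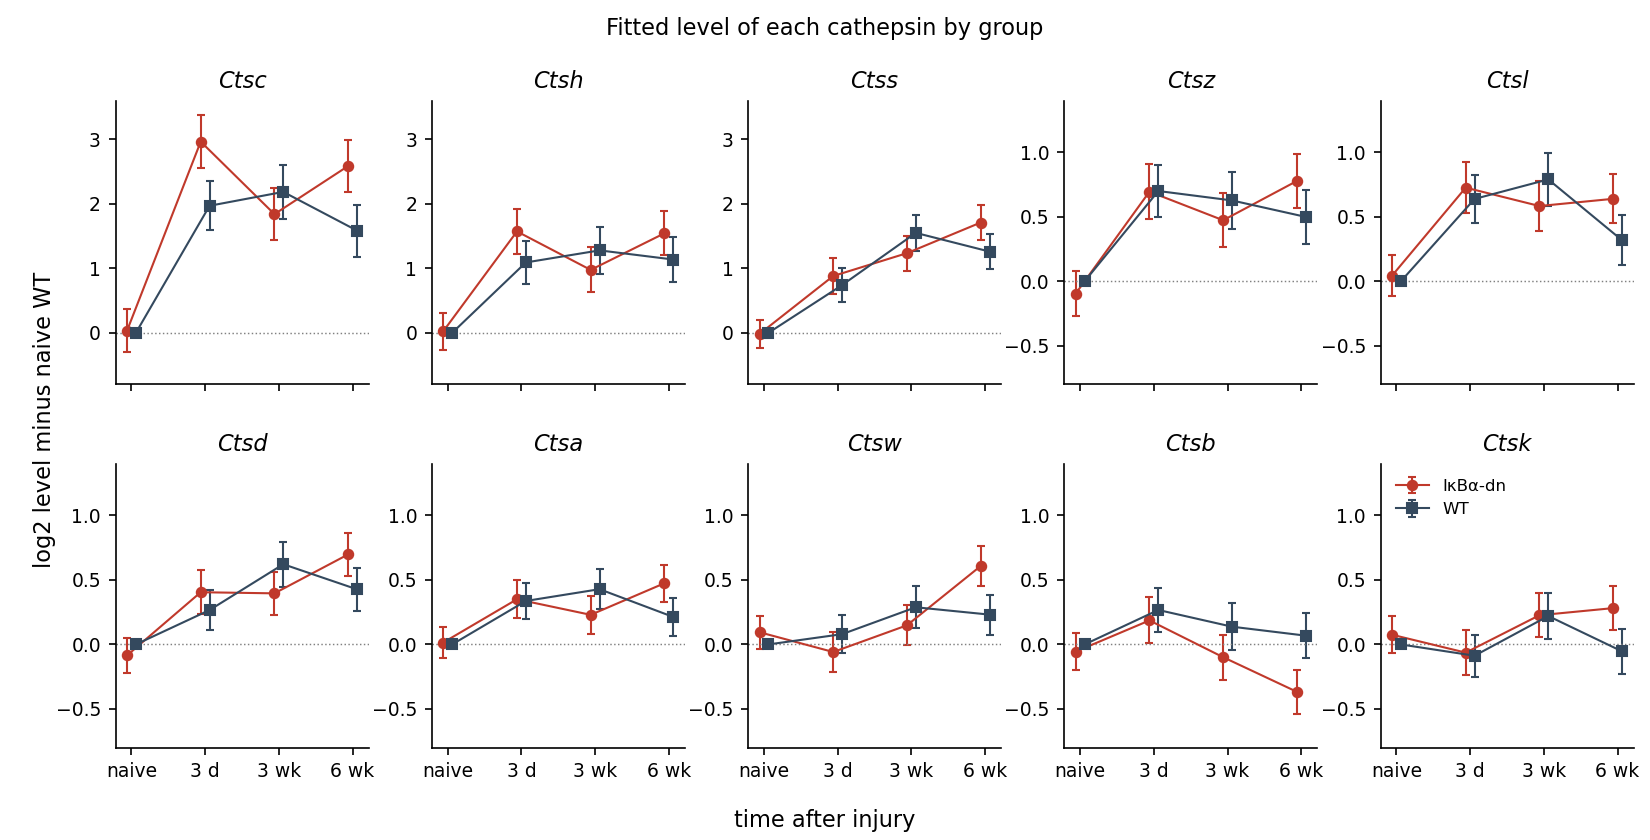
Fitted log2 level of each cathepsin relative to naive WT mice (points; error bars are 1 SE) in naive mice and at 3 days, 3 weeks and 6 weeks after SCI, in IκBα-dn mice and WT mice, with 2 to 3 mice a group; naive WT mice are 0 by construction and the vertical scale is wider for Ctsc, Ctsh and Ctss. Ctsc stands at 2.97, 1.84 and 2.59 in injured IκBα-dn mice and at 1.97, 2.19 and 1.59 in injured WT mice, while Ctsk stays within 0.28 of naive WT mice in all groups.

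Ctsl, Ctsz and Ctsd had smaller fitted changes than these 3 genes at each stage. Ctsl encodes cathepsin L, a broad endopeptidase of the lysosome. It read 0.60, 0.44 and 0.56 at 3 days, 3 weeks and 6 weeks against naive IκBα-dn mice, and 0.87, 0.83 and 0.38 against naive WT mice. It rose by 0.66 ± 0.15 at 3 days (1.58-fold, adjusted p = 0.00926 by limma) and 0.67 ± 0.16 at 3 weeks (adjusted p = 0.0302), and its difference of 0.46 at 6 weeks missed the threshold (adjusted p = 0.0525). Ctsz encodes cathepsin Z, also called cathepsin X, a carboxypeptidase. Its ratios were 0.62, 0.54 and 0.75 in IκBα-dn mice and 1.20, 0.57 and 0.35 in WT mice, again with the highest value on the 3-day WT array. Ctsz rose by 0.75 ± 0.16 at 3 days (1.68-fold, adjusted p = 0.00736 by limma) and 0.69 ± 0.17 at 6 weeks (adjusted p = 0.00891), and 0.60 at 3 weeks missed the threshold (adjusted p = 0.0816). Ctsd encodes cathepsin D, the main aspartic protease of the lysosome. Its ratios were 0.55, 0.50 and 0.50 in IκBα-dn mice and 0.43, 0.59 and 0.59 in WT mice, the narrowest spread of the family on these arrays. By its first probe it rose by 0.55 ± 0.13 at 3 weeks (adjusted p = 0.037 by limma) and 0.61 ± 0.13 at 6 weeks (adjusted p = 0.00433), and 0.38 at 3 days missed the threshold (adjusted p = 0.0775), but not without WT mouse 2 of 3 days (0.47, adjusted p = 0.014). The second Ctsd probe was called higher at 3 weeks but not at 6 weeks. At 6 weeks it stood 0.43 log2 units above naive WT mice in IκBα-dn mice and 0.35 in WT mice, so the 6-week call depended on the probe.

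Ctsa and Ctsb also depended on the probe. Ctsa encodes cathepsin A, also called protective protein, which keeps lysosomal beta-galactosidase and neuraminidase stable. Its first probe read 0.33, 0.18 and 0.29 in IκBα-dn mice and 0.43, 0.43 and 0.20 in WT mice at 3 days, 3 weeks and 6 weeks. All 6 values were above 0, but the fitted differences of 0.34 at 3 days, 0.32 at 3 weeks and 0.34 at 6 weeks were not called (adjusted p = 0.073 at 3 days and 0.0583 at 6 weeks by limma). Without WT mouse 2 of 3 days the 3-day difference was called, at 0.40 (adjusted p = 0.0285 by limma). At 3 days the other Ctsa probes were called, at 0.45 (adjusted p = 0.039) and 0.46 (adjusted p = 0.0173). Both were called higher again at 6 weeks, where the first probe missed the threshold.

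Ctsb encodes cathepsin B, a cysteine protease that acts as an endopeptidase and a dipeptidyl carboxypeptidase. Its first probe read 0.07, 0.11 and -0.36 in IκBα-dn mice and 0.73, 0.11 and -0.14 in WT mice at 3 days, 3 weeks and 6 weeks. Its second probe read 1.05, 1.23 and 1.04 on the same IκBα-dn arrays and 1.27, 0.88 and 1.09 on the same WT arrays. The first showed no common shift and the second was near 1 log2 unit or above on all 6. In the fit the first differed from naive mice by 0.25 at 3 days, 0.05 at 3 weeks and -0.12 at 6 weeks, none called, though without WT mouse 2 of 3 days the 3-day difference was called at 0.33 (adjusted p = 0.0468 by limma). The second rose by 1.03 ± 0.26 (2.04-fold, adjusted p = 0.021 by limma), 1.09 ± 0.28 (2.13-fold, adjusted p = 0.0471) and 1.06 ± 0.28 (2.09-fold, adjusted p = 0.0123). Both probes carry the same reference transcript in the annotation, and which of them follows Ctsb mRNA was not tested, so no direction is given for Ctsb after injury.

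Ctsk was called at no stage and Ctsw at 6 weeks only. Ctsk encodes cathepsin K, the collagen-cutting protease of osteoclasts. It read -0.29, 0.14 and 0.52 in IκBα-dn mice and -0.10, 0.06 and -0.14 in WT mice at 3 days, 3 weeks and 6 weeks, on both sides of 0 in each genotype. The fitted differences were -0.11 at 3 days (95% interval -0.39 to 0.17), 0.19 at 3 weeks and 0.08 at 6 weeks (95% interval -0.22 to 0.37), none called. Ctsw encodes cathepsin W, found in natural killer and cytotoxic T cells. It read -0.28, -0.02 and 0.58 in IκBα-dn mice and 0.36, 0.44 and -0.02 in WT mice. It rose by 0.37 ± 0.12 at 6 weeks (adjusted p = 0.0486 by limma), with differences of -0.04 at 3 days and 0.17 at 3 weeks. This call was kept without IκBα-dn mouse 3 of 3 days, mouse 1 of 3 weeks or mouse 2 of 6 weeks, WT mouse 1 of 3 weeks or naive WT mouse 3, and was lost without any of the other 18 mice. Ctsw was also the only one of the 10 genes called higher at 6 weeks than at 3 days, by 0.41 ± 0.12 (adjusted p = 0.0408 by limma), where 10.7% of all probes were called and 3.21% were higher. That call was kept without IκBα-dn mouse 1 of 3 weeks, WT mouse 1 of any stage after injury or any naive WT mouse, and was lost without any of the other 16 mice. Without WT mouse 2 of 3 days, Ctsb, Ctsc and Ctss were called there in its place, without IκBα-dn mouse 1 of 3 days Ctsb and Ctss, and without WT mouse 1 of 3 days or naive WT mouse 1 Ctss beside it. None of the 10 genes was called by limma between 3 weeks and 3 days (2 at an unadjusted p under 0.05), where 0.24% of all probes were, or between 6 weeks and 3 weeks (0 at an unadjusted p under 0.05), where 4.57% were. Of 15 T and natural killer cell markers, 5 were called higher at 6 weeks against naive mice with a median of 0.23, and their part in the Ctsw change was not tested.

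By probe, 9 of the 15 were called higher at 3 days, 7 at 3 weeks and 10 at 6 weeks. None was called lower. Single mice moved these counts. At 3 days 8 genes were called without WT mouse 2 of 3 days, where only Ctsk (-0.13) and Ctsw (-0.01) were not, and only Ctsc was called without WT mouse 1 of 3 days or naive WT mouse 1, which share an array. In the fit without WT mouse 2 of 3 days, the median 3-day change of the 10 genes was 0.63 log2 units, against -0.06 over all probes. The 9.04% of all probes called at 3 days belongs to the fit with all mice and is no background for the 8. The share of all probes called without that mouse is not given here, so the count of 8 is no result about these genes. Without WT mouse 2 of 3 days, Ctsh was 1.56, Ctss 0.92, Ctsz 0.89 and Ctsl 0.79 log2 units above naive mice at 3 days. At 3 weeks only Ctss was called without WT mouse 2 of 3 weeks. The 3-week count was 2 without IκBα-dn mouse 2 of 3 days, mouse 1 or 2 of 3 weeks, mouse 2 of 6 weeks or naive mouse 2, and without WT mouse 1 or 2 of 3 days, mouse 1 of 3 weeks or naive mouse 1 or 2, and it was 3 without naive IκBα-dn mouse 3, WT mouse 1 of 6 weeks or naive WT mouse 3. At 6 weeks the count stayed between 4 and 7.

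Within IκBα-dn mice, compared in the fit of all arrays of both genotypes, the response was broad at 6 weeks. Against naive IκBα-dn mice, 8 of the 10 genes were called higher at 6 weeks, beside 11.6% of all probes called higher and 25.8% called in either direction. Ctsc was 2.56 ± 0.39 log2 units higher (5.88-fold, adjusted p = 0.000124 by limma), Ctss 1.73 ± 0.26 (3.31-fold, adjusted p = 0.000123) and Ctsh 1.52 ± 0.34 (2.87-fold, adjusted p = 0.00278). Ctsz (0.87), Ctsd (0.78), Ctsl (0.60), Ctsw (0.51) and Ctsa (0.46) also rose, while Ctsb (-0.31 by its first probe, 1.43 by its second) and Ctsk (0.21) were not called by their first probes. The second Ctsd probe was not called there. The count was 5 without IκBα-dn mouse 3 of 3 weeks, mouse 3 of 6 weeks or naive mouse 3. Of the 21 microglia and macrophage markers, 18 were called higher in the same comparison, with a median of 1.22, and their part was not tested. At 3 days Ctsc (2.93), Ctsh (1.55), Ctsz (0.79) and Ctsl (0.68) rose in IκBα-dn mice, where 6.45% of all probes were called and 5.18% were higher. That count was 1 without naive IκBα-dn mouse 2, and it was 2 without IκBα-dn mouse 1 or 2 of 3 days, mouse 1 or 2 of 3 weeks or naive mouse 1, and without WT mouse 1 of 3 days, mouse 1 or 2 of 6 weeks or naive mouse 1 or 2. At 3 weeks Ctsc (1.81 ± 0.39, adjusted p = 0.045 by limma) and Ctss (1.25 ± 0.26, adjusted p = 0.04) rose in IκBα-dn mice, where 0.634% of all probes were called and 0.606% were higher. Both calls held when IκBα-dn mouse 1 of 3 days, WT mouse 1, 2 or 3 of 3 days or naive WT mouse 2 was left out, and at least 1 was lost without any of the other 18 mice.

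Within WT mice, compared in the same fit of all arrays, fewer genes passed. At 3 days only Ctsc was called, at 1.97 ± 0.38 (adjusted p = 0.024 by limma), where 1.98% of all probes were called and 1.8% were higher. Without WT mouse 2 of 3 days, 6 genes were called and 2850 of the 43379 probes with them: Ctsc was then 2.79, Ctsh 1.64, Ctsz 1.04, Ctss 1.04, Ctsl 0.93 and Ctsb 0.49 log2 units above naive WT mice. The WT count at 3 days was 5 without IκBα-dn mouse 1 of 3 days and 3 without WT mouse 2 of 3 weeks. It was 0 without IκBα-dn mouse 3 of 3 days, mouse 1 of 3 weeks, mouse 1 or 2 of 6 weeks or naive mouse 2, and without WT mouse 1 or 3 of 3 days, mouse 1 or 2 of 6 weeks or naive mouse 1 or 3. At 3 weeks Ctsc (2.19 ± 0.42, adjusted p = 0.019 by limma) and Ctss (1.55 ± 0.28, adjusted p = 0.014) rose in WT mice, where 1.07% of all probes were called and 1.01% were higher. That count was 0 without WT mouse 2 of 3 weeks or naive WT mouse 1, 1 without IκBα-dn mouse 1 of 3 weeks, naive IκBα-dn mouse 2 or WT mouse 1 of 3 weeks, and 4 without IκBα-dn mouse 1 of 3 days. At 6 weeks only Ctss was called in WT mice (1.26 ± 0.27, 2.40-fold, adjusted p = 0.0418 by limma), where 0.728% of all probes were called and 0.636% were higher. Its call held without IκBα-dn mouse 1 of 3 days, where the count was 2, without WT mouse 2 of 3 days, where it was 3, and without WT mouse 3 of 3 days, and was lost without any other mouse. Ctsc at 6 weeks in WT mice was 1.59 ± 0.40 log2 units above naive WT mice and missed the threshold (adjusted p = 0.0868 by limma).

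That more genes passed in IκBα-dn mice at 6 weeks does not by itself show a different response, and the difference between the responses was tested. None of the 10 genes was called in the genotype difference of any stage after injury minus that of naive mice, by limma, and at an unadjusted p under 0.05 there were 0 at 3 days, 0 at 3 weeks and 1 at 6 weeks. That 1 was Ctsc, whose change at 6 weeks was 0.97 ± 0.46 log2 units larger in IκBα-dn than in WT mice (unadjusted p = 0.0489, adjusted p = 0.224 by limma), where 9.21% of all probes were called. For the genotype difference at 6 weeks minus that at 3 weeks, no gene was called and 6 had an unadjusted p under 0.05, among them Ctsc at 1.35 ± 0.51 (adjusted p = 0.116 by limma) and Ctsw at 0.52 (adjusted p = 0.117), where 8.36% of all probes were called. Ctsc was called in both of these differences without WT mouse 2 of 3 days, and in the second without IκBα-dn mouse 1 of 3 days as well. In the second, Ctsw was called without IκBα-dn mouse 1 of 3 weeks, and Ctsa without IκBα-dn mouse 1 or WT mouse 3 of 6 weeks.

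**Figure D3:**
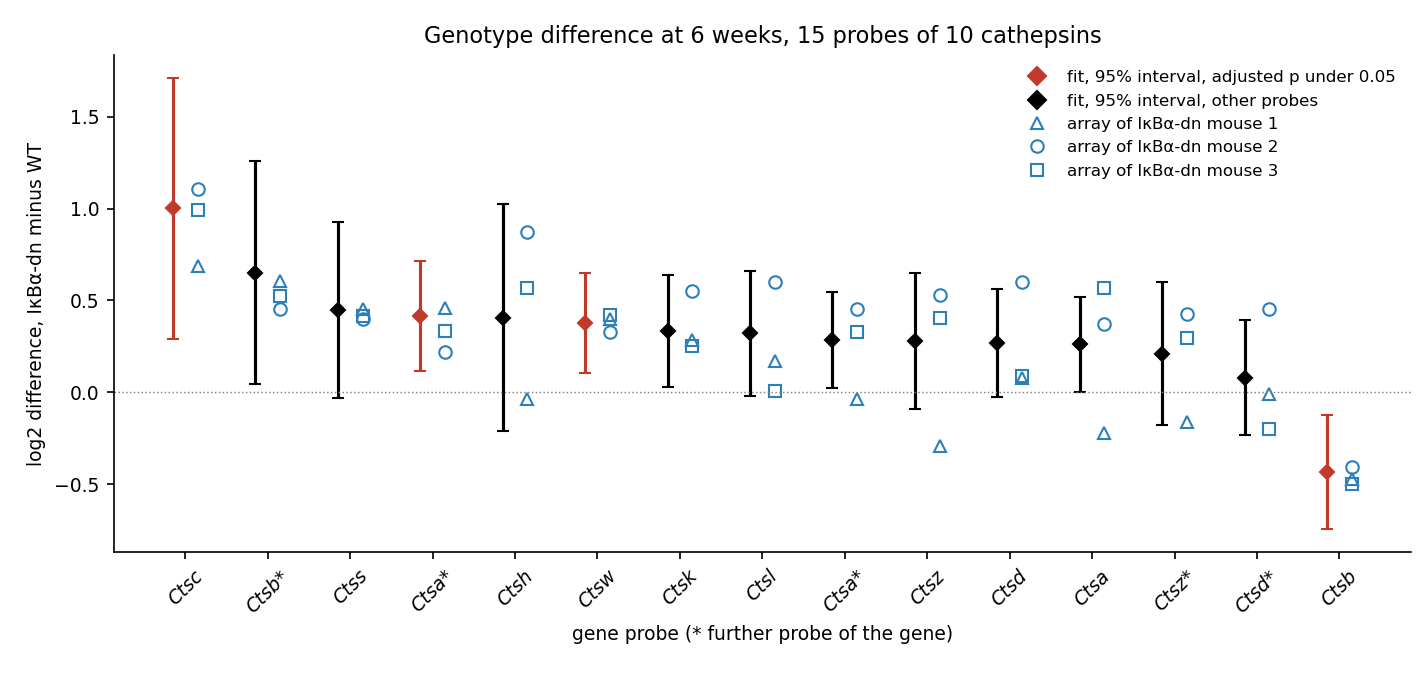
Log2 ratio of IκBα-dn over WT mice at 6 weeks for every cathepsin probe: open symbols are the 3 arrays with both genotypes, diamonds with bars the fitted difference and its 95% interval (red where called), and an asterisk marks a further probe of a gene. Ctsc lies above 0 on all 3 arrays (0.69, 1.11 and 0.99) and the first Ctsb probe below 0 on all 3 (-0.47, -0.41 and -0.50).

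Between the genotypes 3 of the 10 genes were called at 6 weeks after SCI, beside 19.9% of all probes called, 7.89% higher and 12.1% lower. With 10 genes this count is near the share over all probes and is no result about the family. Ctsc and Ctsw were higher in IκBα-dn mice, and Ctsb was lower by its first probe only. The median difference of the 10 genes was 0.33 log2 units, against 0.02 over all probes. Ctsc read 0.69, 1.11 and 0.99 on the 3 arrays with both genotypes, all above 0. Its fitted difference was 1.00 ± 0.34 log2 units, 2.00-fold (SE, 95% interval 0.29 to 1.71, adjusted p = 0.0448 by limma). Ctsw read 0.40, 0.33 and 0.42 on the 3 arrays, a narrow range above 0. Its fitted difference was 0.38 ± 0.13, or 1.30-fold (95% interval 0.10 to 0.65, adjusted p = 0.0496 by limma). The first Ctsb probe read -0.47, -0.41 and -0.50, with a fitted difference of -0.44 ± 0.15, 0.739-fold (95% interval -0.75 to -0.13, adjusted p = 0.0458 by limma).

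All 3 calls lay just under the threshold and rested on most of the mice. None was kept without IκBα-dn mouse 2 of 3 days, mouse 2 of 3 weeks, mouse 2 or 3 of 6 weeks or naive mouse 2 or 3, nor without WT mouse 1 or 2 of 6 weeks. Only 1 gene was called without IκBα-dn mouse 1 or 3 of 3 weeks or mouse 1 of 6 weeks, and without WT mouse 2 of 3 weeks, mouse 3 of 6 weeks or naive mouse 2 or 3. The count was 2 without IκBα-dn mouse 1 or 3 of 3 days or naive mouse 1, and without WT mouse 2 or 3 of 3 days or mouse 1 of 3 weeks.

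The other 7 genes missed the threshold at 6 weeks, with wide intervals around positive differences. Ctss was 0.45 log2 units higher in IκBα-dn mice (0.46, 0.40 and 0.42 on the arrays, adjusted p = 0.189 by limma) and Ctsh 0.41 higher (-0.04, 0.87 and 0.57 on the arrays, adjusted p = 0.378). Ctsk differed by 0.34, Ctsl by 0.32, Ctsz by 0.28, Ctsd by 0.27 and Ctsa by 0.26, none called. Of the additional probes, 1 of Ctsa was called higher, at 0.42 ± 0.14 (adjusted p = 0.0482 by limma), so that 3 of the 15 probes were called higher and 1 lower. The array of IκBα-dn mouse 2 over WT mouse 2 had the highest value of Ctsc, Ctsh, Ctsz, Ctsl, Ctsd, Ctsk and of the first Ctsb probe, while that of Ctsa, Ctsw and Ctss lay on 1 of the other arrays.

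Markers of several cell types differed between the genotypes at 6 weeks in the same mice. Microglia and macrophage markers had 4 of 21 called higher (median 0.32, and 0.17, 0.48 and 0.34 on the 3 arrays in the order used above), neutrophil markers 4 of 12 higher and 1 lower (median 0.51), and T and natural killer cell markers 2 of 15 higher (Cd3d at 0.53 and Klrd1 at 1.01, median 0.32). Astrocyte markers, of the cells that carry the transgene, had 1 of 10 higher, Sox9 at 0.55 (adjusted p = 0.0204 by limma), with a median of -0.01, and oligodendrocyte markers 1 of 11 lower (median 0.07). Fibroblast markers had 5 of 14 higher (median 0.58) and endothelial markers 6 of 10 higher (median 0.64), while neuron markers had 9 of 16 lower (median -0.65). Of 8 osteoclast markers, a cell type whose best known protease is cathepsin K, 1 was higher and 1 lower (median 0.12). Their part in the differences of Ctsc, Ctsw and Ctsb was not tested.

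Before 6 weeks the genotypes were not separated. In naive mice the fitted differences of the 10 genes ran between -0.09 and 0.09 log2 units, and the naive arrays put Ctsc at -0.08, -0.34 and 0.22. At 3 weeks they ran between -0.35 and 0.01, and Ctsc read -0.11 and -0.33. At 3 days Ctsc read 2.30 on the array with WT mouse 2 of 3 days and 0.20 on the other, and its fitted difference of 0.99 ± 0.37 (95% interval 0.21 to 1.78) had an unadjusted p of 0.0162 and an adjusted p of 0.619 by limma. Without that WT mouse the Ctsc difference at 3 days was -0.01, in a fit with only 1 array of both genotypes left at 3 days. It therefore does not show that the genotypes were alike. None of the 10 genes and 0% of all probes were called by limma between the genotypes before injury or at either of these stages. At an unadjusted p under 0.05, naive mice, 3 days and 3 weeks had 0, 1 and 0 of the 10 genes and 1190, 3004 and 971 of all probes.

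**Figure D4:**
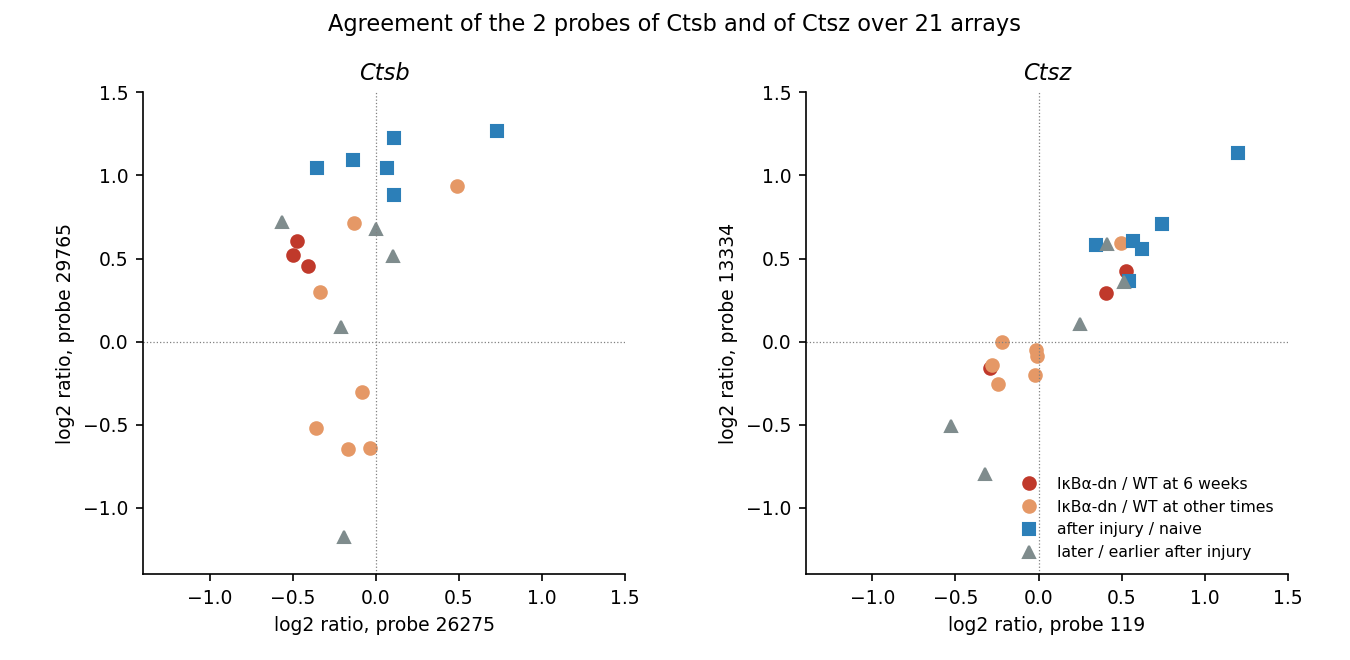
Log2 ratio of the second probe (vertical axis) against the first probe (horizontal axis) of Ctsb and of Ctsz, each point 1 of the 21 arrays, marked by what it compares and with the dye effect taken out. The Ctsz probes follow each other along the diagonal, while the second Ctsb probe is at 0.88 or above on the 6 arrays of injured against naive mice and the first spans -0.36 to 0.73.

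Probes of the same gene were compared over the 21 arrays, which share mice and slides, so that the correlations are descriptions. With ratios as Cy5 over Cy3, Pearson's r was 0.94 between the Ctsz probes, 0.81 between the Ctsd probes and 0.58, 0.86 and 0.76 among the Ctsa probes, but 0.07 between the Ctsb probes. At 6 weeks the second Ctsb probe read 0.60, 0.46 and 0.52 on the arrays where the first read -0.47, -0.41 and -0.50, and its fitted difference between IκBα-dn and WT mice was 0.65 ± 0.29 (95% interval 0.04 to 1.26, adjusted p = 0.128 by limma). The sign of the Ctsb difference at 6 weeks thus depended on the probe, and with the mean of both probes it was 0.11 (adjusted p = 0.722).

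Most of the responsive genes moved together from array to array. Several of the arrays set injured against naive mice, so genes grouped by their rise after injury correlate by that choice. Over the 21 arrays r was 0.94 between Ctsc and Ctsh, 0.92 between Ctsh and Ctsz and 0.91 between Ctsd and Ctss. Among Ctsc, Ctsh, Ctss, Ctsz, Ctsl and Ctsd the lowest r was 0.73, between Ctsl and Ctss. Ctsw followed these genes less, with r between 0.33 (Ctsl) and 0.56 (Ctss). Ctsk stood outside this group, with r between -0.02 and 0.11 to the other genes, apart from 0.44 to Ctsw and -0.62 to the first Ctsb probe. The first Ctsb probe stood outside as well, with r between -0.28 (Ctsw) and 0.27 (Ctsh) to the genes other than Ctsk. Ctss and Ctsk, although neighbours on the chromosome, thus did not follow each other.

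The named genes most like each cathepsin were ranked by the same measure over 19077 genes. Nearest to Ctsc were Adgre1, a surface receptor of macrophages, Msr1, a macrophage scavenger receptor, and Rab32, a small GTPase of lysosome-related organelles (r = 0.99 each). Nearest to Ctsh were S100a6, Capg and Itgb2, the shared beta subunit of leukocyte integrins (r = 0.97 each), and nearest to Ctss were Cd48 (0.94), Csf3r (0.94) and Ccn5 (0.93). For Ctsl the closest gene was Gfap (0.94), the astrocyte filament gene, followed by Skap2 and Chil1 (0.91 each). Ctsd was closest to Irf8 (0.92), a transcription factor of the myeloid lineage, then Cd9 and Csf3r (0.91 each), and Ctsz to AU020206 (0.96), C4b (0.95) and Ccnd3 (0.94). Ctsa was closest to Ski (0.92), Hexa (0.88) and Twf2 (0.87), Hexa being a lysosomal hydrolase gene. The lowest leading values were those of Ctsk, with Gfra3 (0.82), Tpd52l2 (0.81) and Svopl (0.81), and of the first Ctsb probe, with Boc (0.87), Mfsd11 (0.87) and Nagk (0.86). Ctsw was closest to Znrd1as, Oxnad1 and Il4i1 (0.90 each).

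Some inhibitors of cysteine cathepsins also rose. Of 17 inhibitor genes measured, 6 were called higher at 3 days, 2 at 3 weeks and 3 at 6 weeks against naive mice, and none lower. The 3-day count was again 6 without WT mouse 2 of 3 days. Cst7, which encodes the leukocyte inhibitor cystatin F, was 1.83 ± 0.39 log2 units higher at 3 days, 2.80 ± 0.41 at 3 weeks and 3.42 ± 0.41 at 6 weeks (SE). Ctla2b, related to the propeptide of cathepsin L, was higher by 1.69, 1.01 and 1.20, with only 1 inhibitor, Ctla2b itself, differing between the genotypes at 6 weeks (0.71 ± 0.24, adjusted p = 0.0443 by limma). Its relative Ctla2a was higher by 1.47 at 3 days, and Stfa2, a stefin, by 0.93. Of the 13 other cathepsin genes on the array, none was called at 3 days and only Ctso was at 6 weeks. Its values at 6 weeks were 0.43 against naive mice and 0.27 between IκBα-dn and WT mice. Spot brightness was not used, so whether these 13 genes were expressed in the cord was not known. Their lack of calls is therefore no contrast with the cathepsins described above.

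The genes that deliver cathepsins and work beside them changed only in part. Without WT mouse 2 of 3 days the 3-day counts of the next 3 lists were 3, 10 and 4, with none lower. Of 12 sorting and maturation genes, 3 were called higher at 3 days: Lgmn (0.51), the asparaginyl endopeptidase that processes several cathepsins, Scarb2 (0.49), a lysosomal sorting receptor, and Cln8 (0.45). Between the genotypes at 6 weeks, Cln8 (0.44), Igf2r (0.37), the large mannose 6-phosphate receptor, and Nagpa (0.39), which uncovers the mannose 6-phosphate tag, were higher in IκBα-dn mice. Of 35 other lysosomal hydrolases, 9 were called higher at 3 days, with Gusb, the beta-glucuronidase gene, at 1.72 and Galns, Arsb and Gla at 0.72, 0.57 and 0.56. None was called at 3 weeks, and 10 were higher and 3 lower at 6 weeks. At 6 weeks 6 were higher and 3 lower in IκBα-dn than in WT mice, Arsb at 0.63 against Acp2 at -0.57, Glb1 at -0.51 and Aga at -0.42. Of 32 genes of the lysosomal membrane and its proton pump, 4 were called higher at 3 days: Slc11a1 (1.18), Laptm5 (1.11), Lamp2 (1.02) and Tcirg1 (0.60). Between the genotypes at 6 weeks, 5 were higher, among them Laptm5 (0.90) and Lamp2 (0.85), and 8 lower, among them the proton pump subunits Atp6v1h (-1.58), Atp6v1c1 (-1.28) and Atp6v1b2 (-1.27). Those 8 fell in the same comparison in which 9 of 16 neuron markers were lower, and the part of neuron content was not tested. Of 4 genes of the TFEB family, only Mitf was called at 6 weeks between the genotypes (0.97) and none at 3 days.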

How the data were processed

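The authors extracted total RNA from spinal cord, amplified and labelled it, and hybridised 2 mice an array to Agilent whole mouse genome arrays. Per their methods they scanned with GenePix, filtered spots by quality, and normalized by lowess within and quantiles between arrays in limma. The deposited values are log2 ratios of the dyes, as read here. Probes were named from the platform annotation: 33653 had 1 gene symbol, 56 several and 9670 none.

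The ratios were fitted in limma 3.58.1 (R 4.3.3) on 8 groups with 1 dye term, and the covariance of arrays that share a mouse was estimated by REML (share of variance 0.43). Residual degrees of freedom were 13. P-values were adjusted by Benjamini-Hochberg over 43379 probes in each comparison, and the procedure was tested on simulated data. The labels call the mice biological replicates. All 10 cathepsins were named, with up to 4 genes of smallest p per other list at 6 weeks between genotypes and at 3 days against naive mice, and the 3 closest genes to each cathepsin. The genes and lists were chosen with earlier results of these data known. The number of arrays limits the precision.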

Additional observations from a re-analysis of the deposited data

How the results depend on the processing

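Counts of cathepsin genes called were recomputed under other settings, and 205 such counts stayed within 1.5 times the reported one while 63 did not. Reported counts of 0 that stayed 0 are among the 205, so this split does not measure how firmly the calls held. Leaving out 1 mouse at a time gave, over both genotypes against naive mice, 1 to 8 genes at 3 days, 1 to 6 at 3 weeks and 4 to 7 at 6 weeks, 0 to 1 for 3 weeks and 0 to 3 for 6 weeks against 3 days, and 0 to 0 for 6 weeks against 3 weeks. It gave 1 to 5, 0 to 2 and 5 to 8 at the 3 stages in IκBα-dn mice, 0 to 6, 0 to 4 and 0 to 3 in WT mice, 0 to 3 between the genotypes at 6 weeks and 0 to 0 at the other stages, and 0 to 1 for the genotype difference at 6 weeks minus naive or minus 3 weeks. At an adjusted p under 0.01 the counts were 0 between the genotypes at 6 weeks, 1, 0 and 5 in IκBα-dn mice at 3 days, 3 weeks and 6 weeks, 0 at each stage in WT mice, 2 over both genotypes at 3 weeks and 0 for 6 weeks against 3 days. With a false discovery rate of 0.1% and a fold over 2 they were 0 between the genotypes at 6 weeks, 1, 0 and 2 in IκBα-dn mice, 0, 0 and 0 in WT mice, 1, 0 and 2 over both genotypes, and 0 for 6 weeks against 3 days. Without a dye term they were 0 between the genotypes at 6 weeks, 2, 0 and 3 in IκBα-dn mice, 0, 1 and 0 in WT mice, 3, 2 and 3 over both genotypes and 0 for 6 weeks against 3 days. With a dye term for each slide they were 1 in IκBα-dn mice at 3 weeks, 4 and 3 in WT mice at 3 days and 6 weeks, 3 over both genotypes at 3 weeks and 0 for 6 weeks against 3 days. With arrays scaled to one spread they were 1 between the genotypes at 6 weeks, 5 in IκBα-dn and 0 in WT mice at 6 weeks, and 0 for 6 weeks against 3 days. With arrays taken as independent they were 2 in WT mice at 3 days and 3 for the genotype difference at 6 weeks minus 3 weeks. Taking the WT mouse of uncertain stage as 3 weeks gave 2 in WT mice at 6 weeks and 2 for 6 weeks against 3 days, and probes with 1 symbol alone gave 2 for the last. Averaging the probes of each gene gave 8 over both genotypes at 3 days, and turned the Ctsb difference between the genotypes at 6 weeks to 0.11. Only arrays with both genotypes gave 0 at 6 weeks, with fewer arrays. Without the 3 such arrays of 6 weeks, a setting chosen after seeing the data, the counts were 0 between the genotypes at 6 weeks, 0 in IκBα-dn mice at 3 weeks, 0, 1 and 0 in WT mice, 3 over both genotypes at 3 weeks and 0 for 6 weeks against 3 days. Except for the mean of probes, the stricter thresholds and the smaller sets of arrays, the cause was not tested.

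Replicate numbers did not pair the mice, since arrays set differently numbered mice together. With the replicate number as a block the counts were 1 between the genotypes at 6 weeks, 1, 0 and 7 in IκBα-dn mice, 0, 0 and 0 in WT mice, 4, 2 and 7 over both genotypes, 0 for 6 weeks against 3 days and 1 for the genotype difference at 6 weeks minus 3 weeks. Other background corrections and a filter on dim probes were not run, since spot intensities were not used here.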

Other observations

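The array whose labels gave both 3 days and 3 weeks for its WT mouse entered no comparison. With the dye effect taken out, its ratios for the 10 cathepsins lay between -0.37 and 0.30, with Ctsc at 0.03, Ctsh at -0.01, Ctss at 0.07, Ctsz at -0.37, Ctsl at -0.37, Ctsd at 0.30, Ctsa at 0.06, Ctsb at 0.28, Ctsk at -0.08 and Ctsw at 0.27.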
